A study of Homo sapiens with 6 samples.

Results

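The genes of the DNA methylation machinery and of the KRAB co-repressor complex were compared between WT HEK-293T cells and HEK-293T cells that lack THUMPD1. The 10 genes were taken by symbol from the 58870 genes of the count table, and all 10 passed the filter on low counts that 15088 genes passed in all. They are the DNA methyltransferases DNMT1, DNMT3A and DNMT3B with the cofactor UHRF1, the TET dioxygenases TET1, TET2 and TET3, and the co-repressors TRIM28, SETDB1 and ATF7IP. THUMPD1 is the adapter with which the acetyltransferase NAT10 places N4-acetylcytidine on tRNA, and the study asked what its loss does to cells.

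HEK-293T is an immortalized line of human embryonic kidney origin, and both groups were grown in DMEM without a further treatment. The WT group (genotype Thumpd+/+) and the THUMPD1 KO group (genotype Thumpd-/-) had 3 libraries each. The KO cells had been transfected with Cas9 and guides against THUMPD1, sorted for GFP and later sorted as single cells. The paper speaks of a KO cell line, and the labels do not say whether the 3 KO libraries come from 1 clone. An effect of losing THUMPD1 cannot be told apart from other properties of the clone or clones used. The labels do not say that replicates were separate cultures, so p-values measure the spread between these libraries, which may be technical.

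DNMT1 copies methylation onto the new strand after replication, guided by UHRF1, while DNMT3A and DNMT3B place methylation at unmethylated CpG sites. The TET enzymes oxidize 5-methylcytosine, the first step of its removal. KRAB zinc-finger proteins bind DNA, often at transposable elements, and recruit TRIM28 (also called KAP1), which brings SETDB1, a histone H3 lysine 9 methyltransferase, and ATF7IP keeps SETDB1 stable and in the nucleus.

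The libraries held 32225646 to 44099898 expected read counts, and levels were expressed as CPM, the counts of a gene scaled to the library total, of which 1 CPM stood for 32.2 to 44.1 counts. Member genes had 1433 to 21162 counts per library. THUMPD1 itself was at 77.3 to 84.6 CPM in WT and 10.2 to 12.0 CPM in KO (log2 fold change -2.87), which fits the labels. Of 8 genes known for HEK-293T or early kidney, 6 passed the filter, with KRT18 at 23.4 to 41.2 CPM across the libraries, EPCAM under 1 CPM in each and PAX8 at 1 count at most, and 4 of the 6 (66.7%, beside 26.7% of all tested genes) passed the limma test described with the results, PAX2 and LHX1 higher and EYA1 and KRT18 lower in KO. Markers of blood, liver and endothelium (PTPRC, ALB and PECAM1) had at most 4 counts in any library, and COL1A1, a fibroblast gene, fell from 14.3 ± 2.32 CPM in WT to 10.3 ± 2.04 CPM in KO (log2 fold change -0.48, limma adjusted p = 0.016). The part of these differences in the results for the 10 genes was not tested. In such bulk RNA, fewer expressing cells and less RNA per cell cannot be told apart.

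The start regions of the 3 genes that changed are shown because DNA methylation acts at CpG sites, and these promoters differ in how many they hold. RefSeq windows of 300 bases (GRCh38.p14, 250 bases before the transcript start and 50 after) were matched to 9 of the 10 genes, taking the window nearest the start of the canonical transcript. The windows lie at chr1:150926113-150926412 for SETDB1, chr10:68560087-68560386 for TET1 and chr19:4909251-4909550 for UHRF1, all on the plus strand, and capitals mark CpG.
SETDB1: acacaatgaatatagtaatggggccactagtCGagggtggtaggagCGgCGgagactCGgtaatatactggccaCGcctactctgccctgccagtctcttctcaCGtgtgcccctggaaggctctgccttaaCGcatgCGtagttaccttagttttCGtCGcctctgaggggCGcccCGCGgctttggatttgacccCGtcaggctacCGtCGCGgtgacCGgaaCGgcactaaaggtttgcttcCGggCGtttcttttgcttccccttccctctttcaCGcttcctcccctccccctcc
TET1: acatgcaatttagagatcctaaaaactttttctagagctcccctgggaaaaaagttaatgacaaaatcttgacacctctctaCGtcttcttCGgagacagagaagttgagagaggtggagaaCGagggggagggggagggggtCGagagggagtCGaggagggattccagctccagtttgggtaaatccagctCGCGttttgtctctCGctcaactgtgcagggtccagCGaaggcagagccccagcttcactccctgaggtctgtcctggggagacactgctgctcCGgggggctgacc
UHRF1: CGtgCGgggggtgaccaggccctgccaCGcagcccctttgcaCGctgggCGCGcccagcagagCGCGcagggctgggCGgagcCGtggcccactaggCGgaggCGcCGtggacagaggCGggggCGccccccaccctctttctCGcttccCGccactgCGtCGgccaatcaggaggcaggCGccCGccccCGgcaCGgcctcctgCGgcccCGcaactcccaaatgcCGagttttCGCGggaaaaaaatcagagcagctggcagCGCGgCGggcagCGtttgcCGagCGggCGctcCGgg
These windows hold 22 CpG for SETDB1, 10 for TET1 and 36 for UHRF1, beside a median of 14 over all 35116 windows and of 30 over the 9 matched genes. TET1 thus had the fewest of the 3, and 43.6% of all windows held fewer than it did. Among the others, DNMT1 had 30, DNMT3A 46, TET2 35, TET3 45 and ATF7IP 24, while the DNMT3B window, with 3, lay 17467 bases from its canonical start. Methylation itself was not measured here.

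Short motifs were searched in the same windows on both strands. The ETS motif CCGGAAG was in the SETDB1 window alone among the 9 and in 10.3% of all windows. The GC box GGGCGG was in 5 of the 9 (DNMT3A, UHRF1, TET2, TET3 and ATF7IP) and in 45.0% of all windows, and the CCAAT box (letters CCAAT) in 3 of the 9 (DNMT3B, UHRF1 and ATF7IP) and in 34.6%. Of the E2F motif, known from replication genes, only the forms TTTCGCGC and TTTGGCGC were searched. They were in the DNMT1 window only and in 1.15% of all windows. Other forms of the motif were not searched. The printed UHRF1 window holds such a form on its opposite strand, within ttttCGCGggaaaa, so the motif is not particular to DNMT1 among these windows. The remaining windows may hold an E2F site too. Binding of E2F was not tested.

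SETDB1 rose in THUMPD1 KO cells, and TET1 and UHRF1 fell. The other 7 genes did not pass the test, which was limma-voom over all 15088 genes with a Benjamini-Hochberg adjusted p under 0.05. Thus 3 of 10 (30.0%) were called beside 26.7% of all tested genes, 1 higher beside 13.7% and 2 lower beside 13.0%. The count is near the background. The median log2 fold change of the 10 was -0.034 (0.016 over all genes), and the median of its size was 0.093 (0.13 over all genes). On the CPM scale WT and KO libraries did not overlap for 6 of the 10 (60.0%), namely DNMT3B, UHRF1, TET1, TET2, SETDB1 and ATF7IP, beside 42.2% of all tested genes.

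Maintenance methylation rests on DNMT1 and UHRF1. DNMT1 (ENSG00000130816.16, chr19:10133342-10231286, minus strand) was at 306.0, 284.5 and 299.7 CPM in WT and at 298.8, 289.7 and 312.8 CPM in KO. The groups overlapped, with means of 296.8 ± 11.0 and 300.4 ± 11.6 CPM (SD, n = 3 each). Its log2 fold change was 0.011 with a limma 95% confidence interval of -0.09 to 0.11 (adjusted p = 0.884), and the sign changed with the scaling of the libraries (-0.0072 with TMM), so no direction is given. A change of DNMT1 within that interval would not have been detectable here.

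UHRF1, which binds hemimethylated CpG and brings DNMT1 to it, fell. Its levels (ENSG00000276043.5, chr19:4903080-4962154, plus strand) were 249.1, 246.2 and 251.3 CPM in WT against 228.4, 217.4 and 231.0 CPM in KO. Every KO library lay below every WT library, at means of 225.6 ± 7.19 and 248.8 ± 2.56 CPM. In the fit UHRF1 had a log2 fold change of -0.16 ± 0.04 (SE, limma adjusted p = 0.0154), a fitted change of -10.3%. The call was lost without WT replicate 3 (limma adjusted p = 0.0654) or without KO replicate 2 (0.0754). UHRF1 was also the only member whose expected counts were not whole numbers, as when reads are shared with another locus. Of 12 S-phase genes, with which UHRF1 is usually co-expressed, 3 passed the test (25.0%, beside 26.7% of all tested genes). Among these 1 was higher and 2 lower, and the median log2 fold change of the 12 was -0.045. The part of the S-phase genes in the UHRF1 value was not tested.

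Neither de novo methyltransferase passed the test. DNMT3A (ENSG00000119772.16, chr2:25227855-25342590, minus strand) was at 51.8, 45.39 and 47.62 CPM in WT and at 50.0, 40.7 and 44.53 CPM in KO. These groups overlapped, and KO replicate 1 lay above 2 of the WT libraries. The log2 fold change was -0.11 with an interval of -0.26 to 0.05 (limma adjusted p = 0.29), the widest interval of the 10. It was -0.035 without KO replicate 2, -0.064 without WT replicate 1 and -0.18 without KO replicate 1, and none of these passed.

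DNMT3B (ENSG00000088305.18, chr20:32762385-32809359, plus strand) was at 47.43, 45.73 and 47.3 CPM in WT and at 42.31, 40.91 and 44.47 CPM in KO. All KO libraries lay below all WT libraries, with means of 42.56 ± 1.79 and 46.82 ± 0.948 CPM. The log2 fold change was -0.14 with an interval of -0.25 to -0.03, and the adjusted p was 0.0551 by limma, past the threshold only before adjustment (unadjusted p = 0.0153). When same-numbered libraries were paired as a block, limma gave an adjusted p of 0.0303 for DNMT3B, while edgeR gave 0.033 and DESeq2 0.0486. In each of those 3 fits 4 of the 10 genes were called, beside 35.1% of all genes with the block, 25.7% with edgeR and 24.3% with DESeq2.

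**Figure D1:**
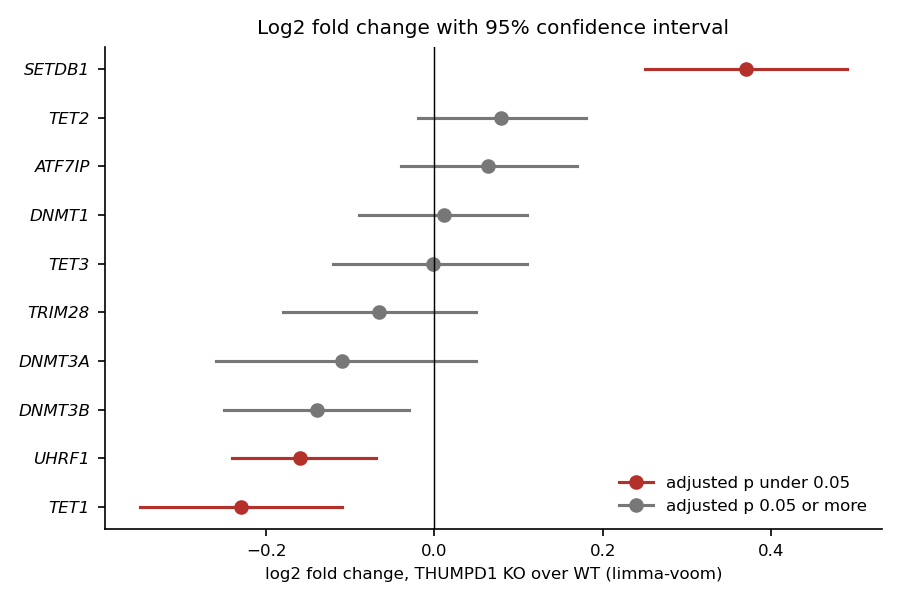
Log2 fold change of the 10 genes, THUMPD1 KO over WT (x axis, limma-voom), with 95% confidence intervals. Red marks an adjusted p under 0.05. SETDB1 stands at 0.37 to the right, UHRF1 at -0.16 and TET1 at -0.23 to the left, and 6 of the other 7 intervals include 0, that of DNMT3B lying just below it.

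Of the TET enzymes, TET1 fell and the others did not pass the test. TET1, known for its role in embryonic stem cells (ENSG00000138336.9, chr10:68560337-68694487, plus strand), was at 129.8, 127.6 and 139.8 CPM in WT. In KO it was at 107.9, 119.5 and 119.1 CPM, below each WT library. TET1 had a log2 fold change of -0.23 ± 0.054 (SE, limma adjusted p = 0.0107), a fitted change of -14.6%. The call was lost without WT replicate 3, its highest library (limma adjusted p = 0.0508).

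TET2, the form without a CXXC domain of its own (ENSG00000168769.13, chr4:105145875-105279816, plus strand), was at 71.29, 69.27 and 69.96 CPM in WT and at 72.18, 77.35 and 72.8 CPM in KO. The libraries did not overlap, but the log2 fold change of 0.079 had an interval of -0.02 to 0.18 (limma adjusted p = 0.223), and it was 0.043 without KO replicate 2. TET3 (ENSG00000187605.15, chr2:73984910-74108176, plus strand), known for its role in the zygote, was at 74.49, 69.37 and 72.06 CPM in WT and at 69.64, 69.8 and 77.52 CPM in KO. Its log2 fold change was -0.002 with an interval of -0.12 to 0.11 (limma adjusted p = 0.982), and the sign turned with total-count scaling (0.0017).

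The co-repressor genes held the largest change of the 10. SETDB1 (ENSG00000143379.12, chr1:150926263-150964744, plus strand) was at 65.35, 56.93 and 59.02 CPM in WT and at 78.39, 76.03 and 81.61 CPM in KO. Every KO library exceeded every WT library, with means of 78.68 ± 2.8 and 60.44 ± 4.38 CPM. The log2 fold change was 0.37 ± 0.055 (SE, limma adjusted p = 0.000737), a fitted rise of 29.5%. SETDB1 passed in all 17 alternatives (adjusted p at most 0.00634), and 14.5% of all tested genes changed by more. It shares 948 exonic bases with CERS2 on the opposite strand, whose own log2 fold change was 0.089 (limma adjusted p = 0.12). The strand setting of the counting was not given in the sources used here. The expected counts of SETDB1 were whole numbers in all 6 libraries (2200 to 3353), without the fractions that shared reads can leave. How the reads of this stretch were divided between the genes was not tested.

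TRIM28, the scaffold that KRAB domains bind, had the highest level of the 10 per kilobase of exon (ENSG00000130726.12, chr19:58544064-58550722, plus strand). It was at 502.4, 472.4 and 494.4 CPM in WT and at 468.9, 448.8 and 503.1 CPM in KO. KO replicate 3 lay above all WT libraries and KO replicates 1 and 2 below all of them, so the groups overlapped. The log2 fold change was -0.066 with an interval of -0.18 to 0.05 (limma adjusted p = 0.375), and it ran from -0.02 without KO replicate 2 to -0.12 without KO replicate 3. With the trend on GC content and length removed, a setting added after the data had been seen, it was 0.0075, the opposite sign.

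ATF7IP (ENSG00000171681.12, chr12:14365676-14502931, plus strand) was at 154.5, 137.6 and 148.5 CPM in WT and at 154.6, 155.8 and 156.8 CPM in KO. The KO libraries were the tightest among the 10 genes (coefficient of variation 0.722%), and the lowest of them lay just above the highest WT library. A log2 fold change of 0.064 had an interval of -0.04 to 0.17 (limma adjusted p = 0.341). Without WT replicate 2 it was 0.019 and without WT replicate 1 it was 0.097, neither past the threshold.

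Within WT, replicate 2 was the lowest library for 10 of the 10 genes and replicate 1 the highest for 8. Within KO, replicate 3 was the highest for 7 and replicates 1 and 2 the lowest for 4 and 6. The CPM of these genes therefore partly moved together within a genotype. The same was not counted over all tested genes, so it is not shown to be particular to these. Ratios of 2 genes within a library do not depend on library scaling.

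The ratios set the members of each step against each other. SETDB1 to TRIM28 was 0.13, 0.121 and 0.119 in WT and 0.167, 0.169 and 0.162 in KO. ATF7IP to SETDB1 was 2.36, 2.42 and 2.52 in WT and 1.97, 2.05 and 1.92 in KO. UHRF1 to DNMT1 was 0.814, 0.865 and 0.838 in WT and 0.764, 0.751 and 0.738 in KO. In all 3 the groups did not overlap, and SETDB1, which rose, enters both the ratio to TRIM28 and that of ATF7IP.

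Both other TETs stood higher against TET1 in every KO library than in any WT library. Both ratios share TET1, which fell, while TET2 and TET3 did not pass the test, so the ratios are not separate findings. The share of ratios without overlap over other pairs of genes was not computed. TET2 to TET1 was 0.531 ± 0.0265 in WT and 0.643 ± 0.0291 in KO, and TET3 to TET1 was 0.544 ± 0.0293 and 0.627 ± 0.0372 (SD, n = 3 each, ratios of counts). DNMT3A to DNMT3B overlapped, at 1.03 ± 0.0538 and 1.06 ± 0.106. The exact two-sided permutation test gave p = 0.1 for 5 of the 6 ratios (adjusted p = 0.12 over the 6) and 0.8 for DNMT3A to DNMT3B, and 0.1 is the smallest p that 20 groupings allow, so no ratio could reach the threshold.

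Levels were put on one scale as CPM per kilobase of merged exons. In WT the order was TRIM28 (114), UHRF1 (48.4), DNMT1 (19.3), TET1 (13.8), ATF7IP (11.2), SETDB1 (8.19), DNMT3B (6.81), TET3 (5.56), TET2 (4.26) and DNMT3A (3.5), and no neighbours in this order overlapped between libraries. In KO the order was the same, but TET1 (12.0) overlapped ATF7IP (11.9) and DNMT3B (6.19) overlapped TET3 (5.59), while SETDB1 was at 10.7. The order depends on the length used. Per kilobase of the canonical transcript, ATF7IP (16.6) stood above TET1 (13.8) and TET2 (7.32) above TET3 (5.97) in WT, and TET1 overlapped SETDB1 (13.7). By that length the KO order differed from the WT order, with SETDB1 (17.8) at rank 4, overlapping ATF7IP (17.6) and above TET1 (12.0), and UHRF1 (57.9) overlapped DNMT1 (57.0).

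Each gene was set beside the 10 tested genes on either side of it (15 in all for TRIM28, at a chromosome end). SETDB1 had a higher log2 fold change than 19 of its 20 neighbours, whose median was -0.023. ARNT and CERS2, next to it, were at -0.039 and 0.089. TET1 lay below 16 of 20 neighbours (median -0.018) and UHRF1 below 15 of 20 (median -0.07). DNMT3B lay below 18 of 20 (median 0.043). Medians for the other 6 ran from 0.0041 around DNMT3A to 0.11 around TET3.

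Next to TRIM28, whose own value did not pass, CHMP2A fell by 0.57 on the log2 scale (limma adjusted p = 0.000279). TET2 lies beside CXXC4, an inhibitor of TET2 protein, which rose by 0.50 (limma adjusted p = 0.00246) from 5.85 ± 0.14 to 8.43 ± 0.637 CPM.

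Genes that act with the 10 were read from lists chosen with earlier results known. Of 24 DNA methylation partners, 22 were tested and 10 passed (45.5%, 3 higher and 7 lower, median log2 fold change 0.023), beside 26.7% of all genes. USP7, the deubiquitinase that stabilizes UHRF1 and DNMT1, fell from 220 ± 6.55 to 166 ± 14.4 CPM (log2 fold change -0.42, limma adjusted p = 0.000731), and 14 of its 20 neighbours also fell (median -0.33). CDCA7L, a relative of the HELLS activator CDCA7, fell by 0.31 (limma adjusted p = 0.000972), and APEX1, the abasic-site endonuclease of base excision repair, by 0.23 (limma adjusted p = 0.00544). Named after their values were seen, HELLS, the remodeller needed for methylation of heterochromatin, rose by 0.18 and CDCA7 fell by 0.20 (limma adjusted p = 0.00622 and 0.0199), the latter not called without KO replicate 2 or 3 (0.0831 and 0.0767). The list count was 6 without WT replicate 3 and 5 without KO replicate 2 or 3. DNMT3L, the catalytically inactive partner of the DNMT3 enzymes, had 0 counts in every library, below the floor of 3 counts.

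Of 9 genes of the MBD and ZBTB families listed as methyl-CpG readers, 2 passed (22.2%, beside 26.7% of all tested genes). Among them 1 was higher and 1 lower, and the median of the list was 0.10. The list goes by family, and not all of its genes, MBD6 among them, are established as binding methylated CpG. MBD1, which links methylated DNA to SETDB1, rose from 46.6 ± 1.17 to 55.8 ± 2.7 CPM (log2 fold change 0.25, limma adjusted p = 0.0049). MBD6 fell by 0.21 (limma adjusted p = 0.0444), a call lost without WT replicate 1, 2 or 3 or KO replicate 1 or 2 (0.058 to 0.173, with a log2 fold change of -0.13 without KO replicate 2), and 8 of its 20 neighbours were lower (median -0.27). The count was 4 with the replicate block (35.1% of all genes in that fit) and 1 without WT replicate 2 or 3.

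Of 27 TRIM28 and histone H3 lysine 9 silencing partners, 5 passed (18.5%, 1 higher and 4 lower, median -0.022), beside 26.7% of all tested genes. SUMO2, the modifier that TRIM28 attaches to itself to recruit SETDB1, rose from 276 ± 10.1 to 323 ± 7.64 CPM (log2 fold change 0.21, limma adjusted p = 0.00462). TASOR, of the HUSH complex, fell by 0.21 (limma adjusted p = 0.0056), and EHMT2, the G9a methyltransferase, by 0.24 (0.00627). MPHOSPH8, another HUSH subunit named after its value was seen, fell by 0.20 (limma adjusted p = 0.0127, and 0.0584 without WT replicate 2). The heterochromatin proteins CBX1, CBX3 and CBX5 had log2 fold changes of -0.02, -0.12 and 0.02 and did not pass.

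**Figure D2:**
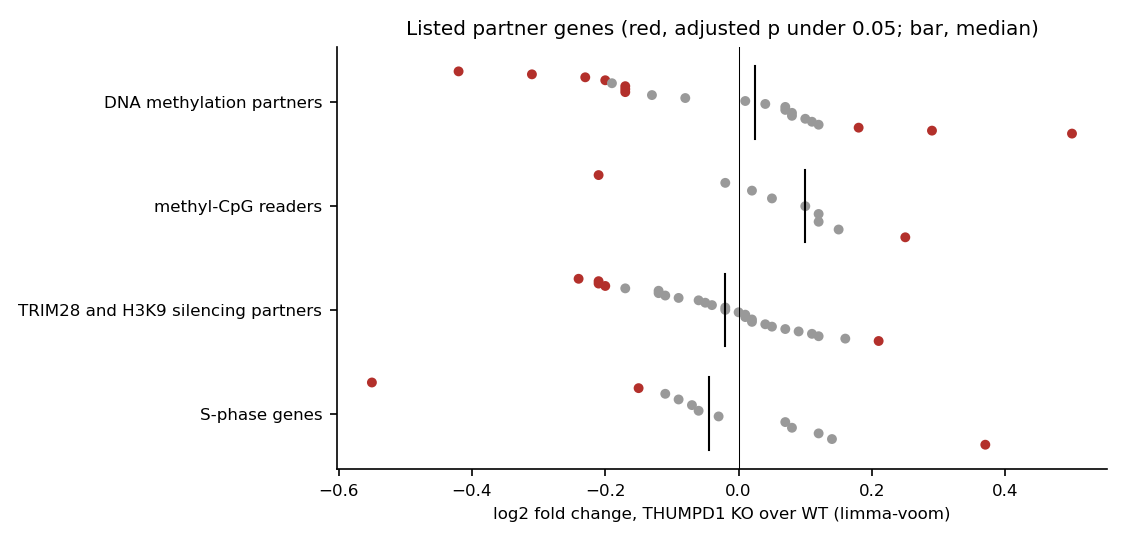
Log2 fold change, THUMPD1 KO over WT (x axis, limma-voom), of the tested genes of 4 partner lists (rows). Points are genes in order of value, red for an adjusted p under 0.05, and bars are medians. Red points lie on both sides of 0 in every list, with CXXC4 at 0.50 and MCM5 at -0.55 the farthest out.

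Among the S-phase genes the 3 that passed were MCM5, a helicase subunit, at -0.55 (limma adjusted p = 0.000206, with a median of -0.40 over its neighbours), CCNE2, a cyclin, at 0.37 (0.0161), and MCM6 at -0.15 (0.0372). CCNE2 was not called without KO replicate 1 or 2 (0.061 and 0.0528) and had a log2 fold change of 0.23, still called, without WT replicate 1. MCM6 was not called without WT replicate 2 or 3 or KO replicate 2 or 3 (0.0935 to 0.139). With the replicate block 6 of the 12 were called, beside 35.1% of all genes in that fit.

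Germline genes known to be repressed by promoter methylation were also read, although methylation was not measured here. Of 28 such genes, 25 stayed under 1 CPM in every library and 7 of those had no count, while 1 more did not pass the filter. The tested ones were TEX14, at 1.18 ± 0.136 and 1.66 ± 0.406 CPM (limma adjusted p = 0.212), and MAGEA1, on the X chromosome, which fell from 2533 to 2788 counts in WT to 5 to 7 counts in KO (log2 fold change -8.24 ± 0.31 SE, limma adjusted p = 1.33e-07). MAGEA1 passed the filter through its WT libraries alone (60.2 to 71.2 CPM, against 0.113 to 0.217 CPM in KO), so its p-value is a description only. Of its 20 neighbours, 2 were higher and 6 lower (median 0.017). The cause of its fall was not tested.

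Zinc-finger genes named ZNF followed by a number were counted as a stand-in for partners of TRIM28, a list added after the data had been seen that holds genes with and without a KRAB domain. Of 409 tested, 172 were called (42.1%), 150 higher and 22 lower, at a median log2 fold change of 0.15. Over all tested genes 26.7% were called, 13.7% higher and 13.0% lower, at a median of 0.016. The counts of the ZNF genes differed by chromosome. On chromosome 19, 115 of 196 were higher and 3 lower (60.2% called, median 0.30), whereas on other chromosomes 35 of 213 were higher and 19 lower (25.4%, median 0.039). Of 813 chromosome 19 genes without such a name, 120 were higher and 95 lower (26.4%, median 0.011). No test of these shares was made. Of the chromosome 19 members, DNMT1 and TRIM28 were not called and UHRF1 fell.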

How the data were processed

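RNA from 3 WT and 3 THUMPD1 KO samples (Trizol) went into a stranded total RNA kit with ribosomal depletion and paired-end sequencing. The authors aligned reads to GRCh38 (hg38 in the submitters' processing notes) with STAR and deposited RSEM expected counts per gene, which need not be whole. In R 4.3.3, the 15088 genes that reached 1 CPM in 3 or more of the 6 libraries (99.74% to 99.78% of counts) went through quantile normalization and limma-voom 3.58.1, with Benjamini-Hochberg adjustment over all of them, after the study's stated methods. Alternatives were edgeR 4.0.16 and DESeq2 1.42.0 on rounded counts, other scalings, filters and weights, a replicate block, and each library left out. The limma fit was also run on simulated data. In a rerun with other random draws, recovery of the smaller folds fell just short of the limit first set, which was then lowered. All simulated folds were larger than the fitted changes of the member genes, so the run does not show how well changes of that size are found.

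CPM were divided by total counts. Gene positions and lengths are from GENCODE 44 (99.3% of IDs matched). Ratios were tested by exact permutation. Same-numbered WT and KO libraries deviated together (correlations 0.171, 0.147 and 0.139, other pairs -0.140 to 0.0194), so the numbers were taken to pair the samples, although the labels do not say so. The pairing entered the replicate block only, and the main fit and the permutation test did not use it. Libraries of one genotype differed beyond counting noise (chi-square per degree of freedom 4.29 to 18.3). The members, lists and tests were chosen with earlier results of these data known. Named genes are the 10 members, THUMPD1, and up to 4 called genes of each list by smallest adjusted p, with exceptions marked and some items not reported here.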

Additional observations from a re-analysis of the deposited data

How the results depend on the processing

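Over the 17 alternatives for each of the 10 genes, 146 values kept direction and side of the threshold, 6 newly passed, 3 no longer passed and 15 changed sign. All 15 sign changes belong to DNMT1, TET3 and TRIM28, none of which was called. DNMT1 was at -0.0072 with TMM and with edgeR, -0.0069 with DESeq2, and -0.020 to 0.044 with single libraries left out. TET3 was at 0.0017 with total counts, 0.030 with quality weights, 0.022 after removal of a trend on GC content and length, 0.023 with that and the replicate block, and -0.047 to 0.025 with single libraries left out. TRIM28 was at 0.0075 with the trend removed and 0.0077 with the block as well. DNMT3B newly passed with TMM (adjusted p = 0.0333), edgeR (0.033), DESeq2 (0.0486), the replicate block (0.0303), quality weights (0.0379) and the trend with the block (0.04). The log2 difference of DNMT3A to DNMT3B ran from -0.04 (without KO replicate 1) to 0.08.

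With 1 library left out, the number of genes changed ran from 2663 (without KO replicate 2) to 4245, of members called from 1 (without WT replicate 3) to 3, of DNA methylation partners from 5 to 13 and of readers from 1 to 3. Called genes of the reader list numbered 1 with no CPM filter, 4 with the replicate block, 5 with quality weights and 4 with the trend and the block. Called TRIM28 partners numbered 9 with quality weights, 8 with the trend removed and 10 with the trend and the block. Called S-phase genes numbered 5 with total counts and 6 with the block, with quality weights, and with the trend and the block. The germline list had 0 called at 1 CPM in all 6 libraries, since that filter removes MAGEA1. The replicate block changed no other call of a member. The cause of the other shifts was not tested. Trend removal was added after the data had been seen. At 32.2 to 44.1 counts per CPM, genes under 1 CPM were counted but not tested.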
